A study of Homo sapiens with 17 samples.

Results

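The response to 1 µM D9 was split by the lineage of the cells. D9 is an analog of 3-deazaneplanocin A, a compound that blocks S-adenosylhomocysteine hydrolase, and each of 6 human acute myeloid leukaemia lines was compared with its own untreated culture. The effects in 4 monocytic lines (THP-1, Mono-Mac-1, MOLM-14 and MV-4-11) were set against those in 2 progenitor lines (TF-1 and KG-1a). These comparisons use 12 of the 17 arrays of the series, 8 from monocytic and 4 from progenitor lines. The untreated arrays are labelled as controls with no vehicle named, and the treated cultures received 1 µM D9 for 48 h. Total RNA was put on Illumina bead arrays, with 1 array per line and dose, so the line is the replicate and a p-value measures the spread between lines. All lines grew in serum-containing medium, and that of TF-1 alone also held interleukin-3 in every culture. The labels name the line and the dose. The lineage, and the KMT2A fusion that all 4 monocytic lines carry, come from general knowledge of these established lines, so lineage and fusion cannot be told apart here. Each line stands for 1 leukaemia. The split crosses the study's own classes, since the monocytic set holds 2 sensitive lines (MOLM-14, MV-4-11) and 2 resistant lines (THP-1, Mono-Mac-1), and the progenitor set holds 1 of each (TF-1 sensitive, KG-1a resistant).

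S-adenosylhomocysteine is the product of methyl transfer and inhibits the enzymes that make it, so blocking the hydrolase slows the methylation of histones, RNA and other targets. Leukaemias stopped at a monocytic stage resemble monocytes in part: they carry lysosomal enzymes, MHC class II molecules and innate immune receptors, and those with a KMT2A fusion run a HOXA and MEIS1 programme. Lines stopped earlier, such as TF-1 and KG-1a, keep the surface antigen CD34 of blood stem and progenitor cells.

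The untreated arrays separated the lineages by CD34 and CSF1R, and less evenly by other markers. The CD34 level was 11.64 in TF-1 and 13.21 in KG-1a and between 6.17 and 6.44 in the monocytic lines, on a scale of log2 normalized signal whose filter for dim probes lay at 6.16. CSF1R, the receptor for the monocyte growth factor M-CSF, was at 8.19 to 9.36 in the monocytic lines and at 6.49 and 6.14 in TF-1 and KG-1a. Of 39 monocyte markers on the array, 15 to 26 lay at least 1 log2 unit above that filter in the monocytic lines, against 11 in TF-1 and 4 in KG-1a. A list of 26 stem and progenitor markers did not separate the lineages. By the same measure it gave 11 in TF-1 and 12 in KG-1a, and 11 in MOLM-14, 11 in MV-4-11, 7 in Mono-Mac-1 and 6 in THP-1. CD14 was high in MOLM-14 (11.40) and THP-1 (8.07) and at 6.33 to 6.49 in the other 4 lines, and ITGAM was highest in TF-1 (10.0). MEIS1 was at 9.05 to 9.76 in 3 monocytic lines but at 6.68 in THP-1, close to TF-1 (6.72) and KG-1a (6.4). TF-1 carried 23 of 29 erythroid and megakaryocyte markers against 3 to 6 in each other line, and KG-1a carried the T-cell antigens CD3D (12.74) and CD7 (10.68). The 2 progenitor lines are therefore unlike each other in these markers. Arrays of THP-1 and TF-1 had a lowest raw signal of 30.2 to 35.4, while it was 0 on most other arrays, and each of these sets holds lines of both lineages.

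The first question was whether the size of the response went with lineage. The number of probes that changed at least 2-fold was 646 in MV-4-11 (251 higher, 395 lower), 397 in THP-1 (160 higher, 237 lower) and 238 in Mono-Mac-1 (150 higher, 88 lower). The number was 94 in TF-1 (58 higher, 36 lower), 46 in MOLM-14 (25 higher, 21 lower) and 34 in KG-1a (18 higher, 16 lower). The monocytic lines therefore held both the largest response and, in MOLM-14, a response below that of TF-1, so the groups overlapped. The geometric mean was 230.2 probes in monocytic and 56.53 in progenitor lines, a ratio of 4.07 (exact two-sided permutation test over the lines, p = 0.267). The smallest p that 4 against 2 lines allow is 0.0667. The effects of TF-1 and KG-1a correlated at 0.362 across 28394 probes, a value inside the range between pairs of monocytic lines (0.036 to 0.434), while pairs across lineages ran from -0.024 (THP-1 with KG-1a) to 0.358 (MV-4-11 with KG-1a). The probes are not independent replicates.

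**Figure D1:**
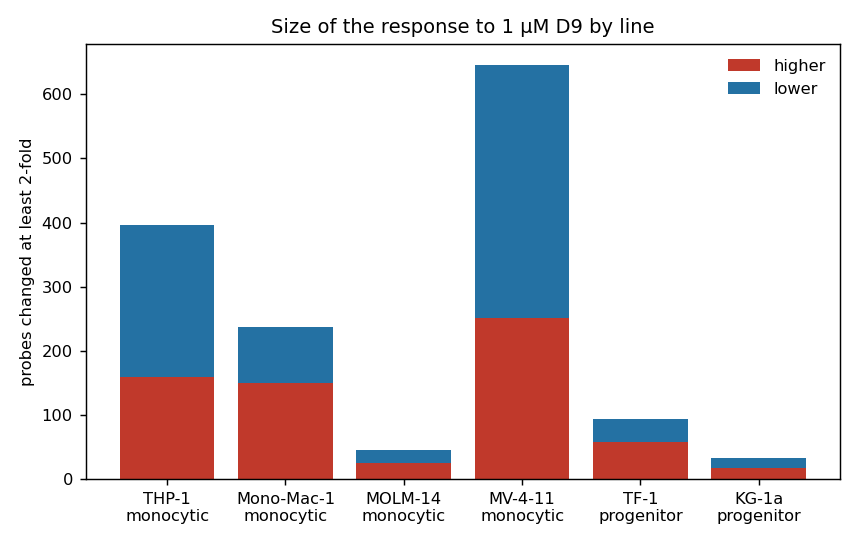
Number of tested probes changed at least 2-fold by 1 µM D9 in each line (y axis, probes; red higher and blue lower than the untreated array of the line, stacked from 0). MV-4-11 (646) and THP-1 (397) stand highest, while MOLM-14 (46), a monocytic line, lies between KG-1a (34) and TF-1 (94).

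The second question was which probes changed within each lineage and which differed between them. In the monocytic lines limma called 433 of 28394 probes higher (1.52%) and 388 lower (1.37%) at an adjusted p under 0.10. Taken by gene, with the brightest tested probe of each of 14337 genes, 293 rose (2.04%) and 243 fell (1.69%). Counts of genes that rose or fell in the monocytic lines are hereafter counts of genes called in this way. Most changes were small, with 20 probes at least 2-fold higher and 15 at least 2-fold lower. Of the 821 called probes, 817 moved the same way in all 4 monocytic lines and 518 the same way in all 6 lines. In the progenitor lines 0 of 28394 probes were called (0%, smallest adjusted p = 0.593), with 1788 at an unadjusted p under 0.05. For the monocytic minus progenitor difference 0 were called as well (0%, smallest adjusted p = 0.8003), with 1367 probes, 4.81% of those tested, at an unadjusted p under 0.05. The same effects split into sensitive minus resistant lines gave 0 calls (0%, smallest adjusted p = 0.999) and 795 probes at an unadjusted p under 0.05. The lineage differences named hereafter are therefore values and not calls. The median standard error was 0.095 for the monocytic mean, 0.13 for the progenitor mean and 0.17 for the difference.

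The call in monocytic lines and the lack of one in progenitor lines is no measure of a difference. Of the 433 probes that rose in the monocytic lines, 352 also had a progenitor mean above 0 (81.3%, against 49% of all tested probes), but their median was 0.53 in monocytic and 0.17 in progenitor lines. Of the 388 that fell, 306 had a progenitor mean below 0 (78.9%, against 51% of all), with medians of -0.53 and -0.20. The monocytic values chose these probes, so their larger size there follows in part from the choice. The number called rested on single lines. It was 6 without Mono-Mac-1, 295 without MV-4-11 and 1347 without THP-1, and 50 without TF-1 or without KG-1a, where only the monocytic lines inform the spread. With median scaling the calls were 253 higher and 787 lower, and with the authors' log2 values 463 higher and 650 lower, so the balance of directions depends on the scaling.

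**Figure D2:**
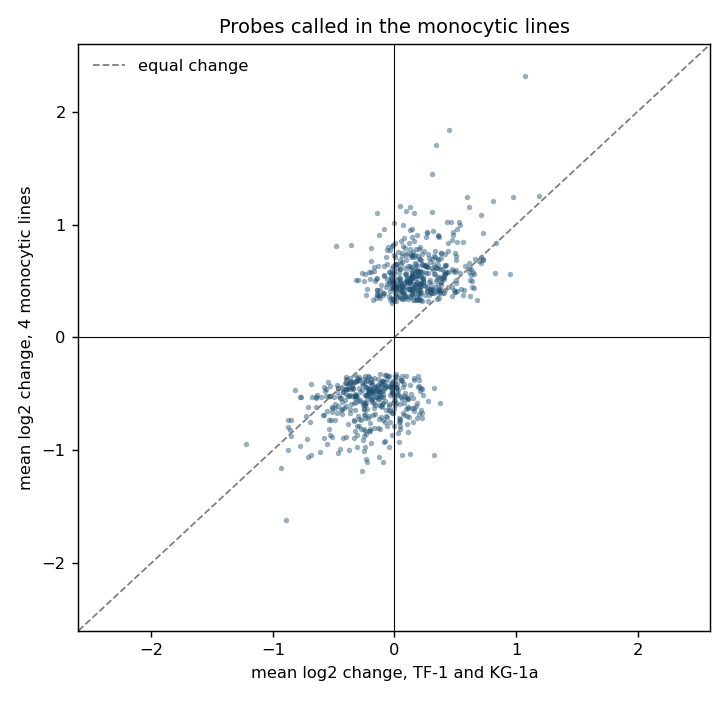
Mean log2 change in the 4 monocytic lines (y axis) against that in TF-1 and KG-1a (x axis), 1 µM D9 minus untreated, for each of the 821 probes called in the monocytic lines. The points were chosen on the y axis; most lie on the same side of 0 on the x axis (352 of 433 higher, 306 of 388 lower) and closer to 0 there.

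Line effects of 2102 probes (7.4%) were higher in every monocytic line than in either progenitor line, and those of 1880 (6.62%) were lower. Both shares lie near 1 in 15 (0.0667), which lines without any lineage difference would give in each direction. These counts are therefore no result about lineage. By gene these counts were 1100 (7.67%) and 989 (6.9%) of 14337. The 10 named genes on each side are those of such non-overlap with the smallest unadjusted p, which ran from 4.1e-05 to 0.00151 over the 20, with adjusted p of 0.8003 to 0.994. All 20 kept their sign under 14 other choices of values, filters, doses and lines. For genes chosen without overlap, leaving out a line cannot change that sign, and the other choices reuse arrays that chose them. The count is therefore no test of these genes. At 5 µM, measured in 5 lines against the same untreated arrays, 18 of the 20 did not overlap, in the same direction. The shared untreated arrays helped to choose the genes, so this is no independent repeat. The share of all probes without overlap at 5 µM was not computed. CD52 and CD48 were the exceptions in that count, with KG-1a at 0.56 for CD52 and Mono-Mac-1 at -0.17 for CD48. Where 4 values are set against 2 without names, they stand in the order THP-1, Mono-Mac-1, MOLM-14, MV-4-11, then TF-1, KG-1a.

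The genes with higher values in the monocytic lines are described first. HLA-DMA codes for a chain of HLA-DM, which loads peptides onto MHC class II molecules in endosomes. Its level went from 8.10 to 9.17 in THP-1, from 8.11 to 8.95 in Mono-Mac-1, from 10.39 to 11.23 in MOLM-14 and from 8.27 to 9.38 in MV-4-11. The level went from 11.17 to 10.93 in TF-1 and from 6.46 to 6.52 in KG-1a, where it was dim. The rise was thus seen in all 4 monocytic lines whatever their starting level, and the most strongly expressing line, TF-1, lay slightly below its control. The monocytic mean rose by 0.96 ± 0.09 (limma, adjusted p = 0.0179), and the difference was 1.05 ± 0.16 (95% interval 0.69 to 1.41, adjusted p = 0.8003).

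The promoter of HLA-DMA is shown because that gene had the smallest p of the difference among the antigen presentation genes. The 250 bases before the gene start, from RefSeq (chr6:32953098-32953347, minus strand, GRCh38.p14), hold 2 CCAAT words on the opposite strand, starting at positions -79 and -49 from the gene start and read here as the capitals ATTGG.
HLA-DMA: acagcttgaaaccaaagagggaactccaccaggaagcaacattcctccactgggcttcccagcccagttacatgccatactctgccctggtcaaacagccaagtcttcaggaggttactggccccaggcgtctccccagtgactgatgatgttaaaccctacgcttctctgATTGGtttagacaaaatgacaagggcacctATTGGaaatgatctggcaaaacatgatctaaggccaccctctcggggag
Searched on both strands, CCAAT occurred in 11 of 14 promoters of the class II list that had a RefSeq entry (78.6%) and in 32% of all 35114 promoters of this length. A match is a description of the letters only.

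CHI3L1, which codes for a chitinase-like protein secreted by macrophages, had effects of 1.00 in THP-1, 1.09 in Mono-Mac-1, 1.66 in MV-4-11 and 0.86 in MOLM-14. The progenitor effects were 0.19 in TF-1 and 0.06 in KG-1a, with TF-1 near the filter level throughout (6.29 and 6.48). The monocytic mean rose by 1.15 ± 0.13 (adjusted p = 0.0212) and the difference was 1.03 ± 0.22. A dimmer second probe read a difference of 0.29. PSAP, the precursor of the saposins that help break down sphingolipids in lysosomes, read 0.87, 0.63, 0.30 and 0.91 against -0.16 and -0.24. The difference was 0.87 ± 0.19, and 0.67 on its second probe.

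Surface proteins of leukocytes followed. CD48, a ligand of the CD244 receptor of natural killer cells, read 0.77 in THP-1, 0.55 in Mono-Mac-1, 0.68 in MV-4-11 and 0.51 in MOLM-14, against -0.11 in TF-1 and -0.23 in KG-1a. CD52, a small glycoprotein anchored in the leukocyte membrane, read 0.44, 0.45, 0.59 and 0.61 against -0.25 and -0.04. Both rose in the monocytic lines, CD48 by 0.63 ± 0.08 (adjusted p = 0.0267) and CD52 by 0.52 ± 0.08 (adjusted p = 0.0393). IFITM2, an interferon-induced barrier to virus entry with close paralogs that could share its probe signal, read 0.61, 0.25, 0.47 and 0.71 against -0.36 and -0.25.

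For 2 genes of this side the difference came mainly from lower values in the progenitor lines. LY96 codes for MD-2, which binds bacterial lipopolysaccharide together with TLR4, and its effect was -0.59 in TF-1 and -0.54 in KG-1a. In the monocytic lines it was 0.21 in THP-1, 0.28 in Mono-Mac-1, 0.27 in MV-4-11 and 0.19 in MOLM-14. The monocytic mean of 0.24 did not pass (adjusted p = 0.159), nor did the progenitor mean of -0.57 (adjusted p = 0.593). SCN9A, a sodium channel gene, read -0.80 in TF-1 and -0.66 in KG-1a and -0.07 to 0.15 in the monocytic lines, where its level of 6.01 to 6.30 was near the filter. Its second probe gave a difference of 0.22.

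N4BP2L2 had the smallest p of the difference. Its level went from 8.15 to 9.61 in THP-1, from 6.63 to 8.67 in Mono-Mac-1, from 7.44 to 9.14 in MOLM-14 and from 7.32 to 8.94 in MV-4-11, but only from 6.81 to 7.21 in TF-1 and from 6.84 to 7.11 in KG-1a. It was higher after D9 in 6 of 6 lines, by more in each monocytic line. The monocytic mean rose by 1.71 ± 0.10 (adjusted p = 0.00255) and the difference was 1.37 ± 0.18 (95% interval 0.96 to 1.77). A second probe gave a difference of 1.39, but the other 3 probes of the gene gave 0.46, -0.08 and -0.04, so the pattern is that of 2 of 5 probes.

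**Figure D3:**
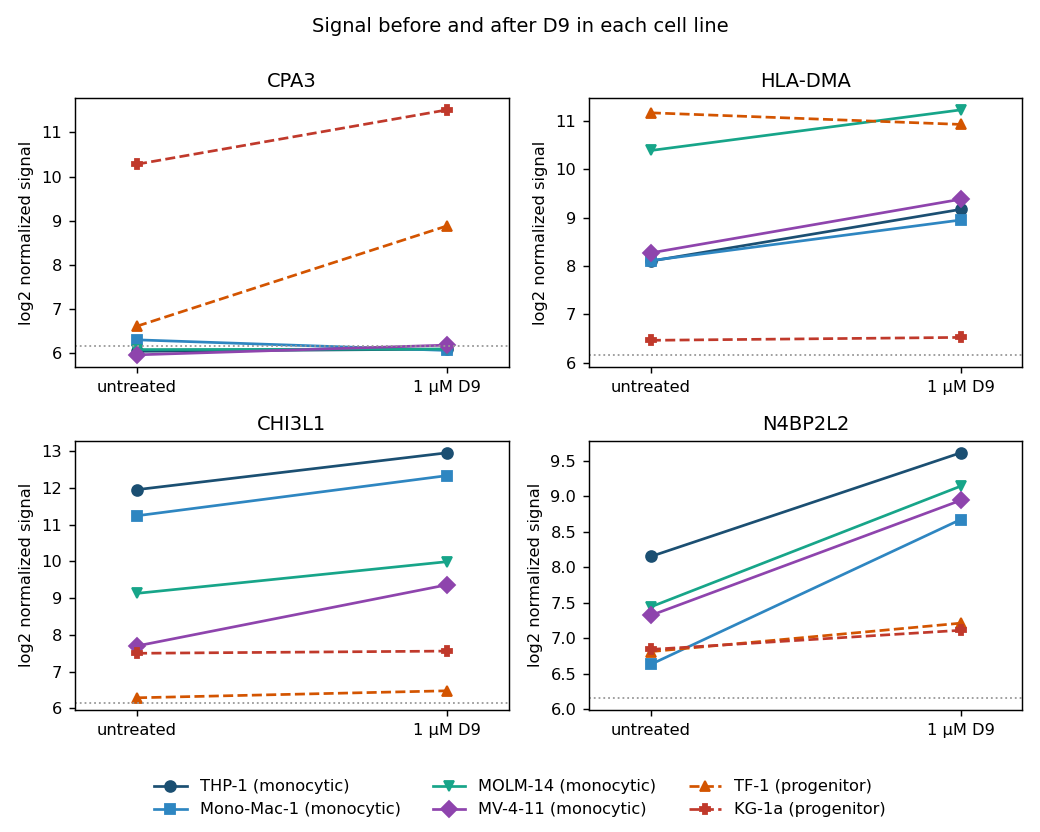
Log2 normalized signal of 4 genes (y axis) in the untreated and 1 µM D9 arrays of each line (x axis); each line of the plot joins the 2 arrays of a cell line, solid for monocytic and dashed for progenitor lines, and the dotted line is the filter level of 6.16. HLA-DMA, CHI3L1 and N4BP2L2 slope upward in all 4 monocytic lines, and CPA3 gains 2.26 in TF-1 and 1.23 in KG-1a while its monocytic lines change by -0.23 to 0.22.

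On the other side, CPA3 had the highest progenitor mean of the 20. It codes for carboxypeptidase A3, a protease of mast cell granules. Its level went from 6.61 to 8.88 in TF-1 and from 10.28 to 11.51 in KG-1a. In the 4 monocytic lines it was between 5.96 and 6.30 before and between 6.06 and 6.18 after D9, at or near the filter level, where little signal lies above background. The effects were 2.26 and 1.23 in the progenitor lines and -0.23 to 0.22 in the monocytic lines, a fitted difference of -1.73 (adjusted p = 0.8003) in which the monocytic values carry little signal. The probe passed the filter through TF-1 and KG-1a. At 5 µM the effects were 3.28 in TF-1 and 2.02 in KG-1a, and -0.24 to 0.07 in 3 monocytic lines.

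The promoter of CPA3 is shown because the gene had the highest progenitor mean among the 20. In the 250 bases before the gene start (chr3:148865046-148865295, plus strand, RefSeq GRCh38.p14) the GATA word AGATAA, in capitals, starts at positions -173 and -45 from the gene start.
CPA3: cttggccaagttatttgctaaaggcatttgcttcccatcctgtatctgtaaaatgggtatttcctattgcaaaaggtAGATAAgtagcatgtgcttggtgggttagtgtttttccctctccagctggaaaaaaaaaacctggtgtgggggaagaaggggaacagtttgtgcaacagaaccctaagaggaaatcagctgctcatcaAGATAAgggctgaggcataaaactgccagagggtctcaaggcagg
AGATAA or TGATAA, on either strand, is found in 14.6% of all promoters of this length. The motif was chosen for this gene, and a match is a description of the letters only. GATA2, a GATA factor of progenitors and mast cells, had an untreated level of 11.39 in TF-1 and 8.65 in KG-1a against 6.03 to 7.36 in the monocytic lines. The D9 effect on GATA2 was -0.37 in TF-1 and 0.15 in KG-1a. A link between GATA2 and CPA3 was not tested.

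HEMGN, a nuclear protein of haematopoietic and erythroid cells, went the same way as CPA3, with effects of 0.59 in TF-1 and 0.54 in KG-1a. In the monocytic lines the effects were -0.21 to 0.11, where its level was again near the filter (6.02 to 6.21 untreated). A dimmer second probe of HEMGN read 0.08 in TF-1 and 0.50 in KG-1a, with a difference of -0.31. FAIM, an inhibitor of FAS-induced cell death, read 0.75 in TF-1 and 0.84 in KG-1a and -0.27 to 0.20 in the monocytic lines, but its other probes gave differences of -0.18 and 0.09. PROSER2 read 0.78 and 0.58 against -0.23 to 0.06, and its second probe gave a similar difference (-0.87 beside -0.74). LSM3, part of a ring of proteins on the U6 small nuclear RNA, read 0.68 and 0.55 against -0.24 to 0.09, with a second probe at -0.23.

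The other genes described on this side were below 0 in each of the 4 monocytic lines. EXOSC9, a subunit of the RNA exosome, read -0.64 in THP-1, -0.75 in Mono-Mac-1, -1.04 in MV-4-11 and -0.43 in MOLM-14, against 0.19 in both TF-1 and KG-1a. It fell by 0.72 ± 0.10 in the monocytic lines (adjusted p = 0.0351), with a difference of -0.91 ± 0.18 and of -0.66 on its second probe. NETO2, an auxiliary subunit of kainate receptors in neurons, fell by 0.69 ± 0.10, DRC8 by 0.55 ± 0.08 and the pseudogene ARHGAP27P1, whose probe could also read its parent gene, by 0.57 ± 0.08. In KG-1a the level of NETO2 (5.97 after D9) and DRC8 (6.01 untreated) lay below the filter, so a fall could not be seen there and their progenitor effect rests on TF-1 (0.18 and 0.07), where DRC8 was also low (6.80 untreated). ARHGAP27P1 read 0.22 in TF-1 and 0.33 in KG-1a, but its other probes gave differences of -0.38 and -0.22, with line effects that overlapped. The mean of CIT, a kinase of cytokinesis, was -0.22 in the monocytic lines (adjusted p = 0.228) and 0.42 in the progenitor lines, so more of its difference came from the progenitor side.

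**Figure D4:**
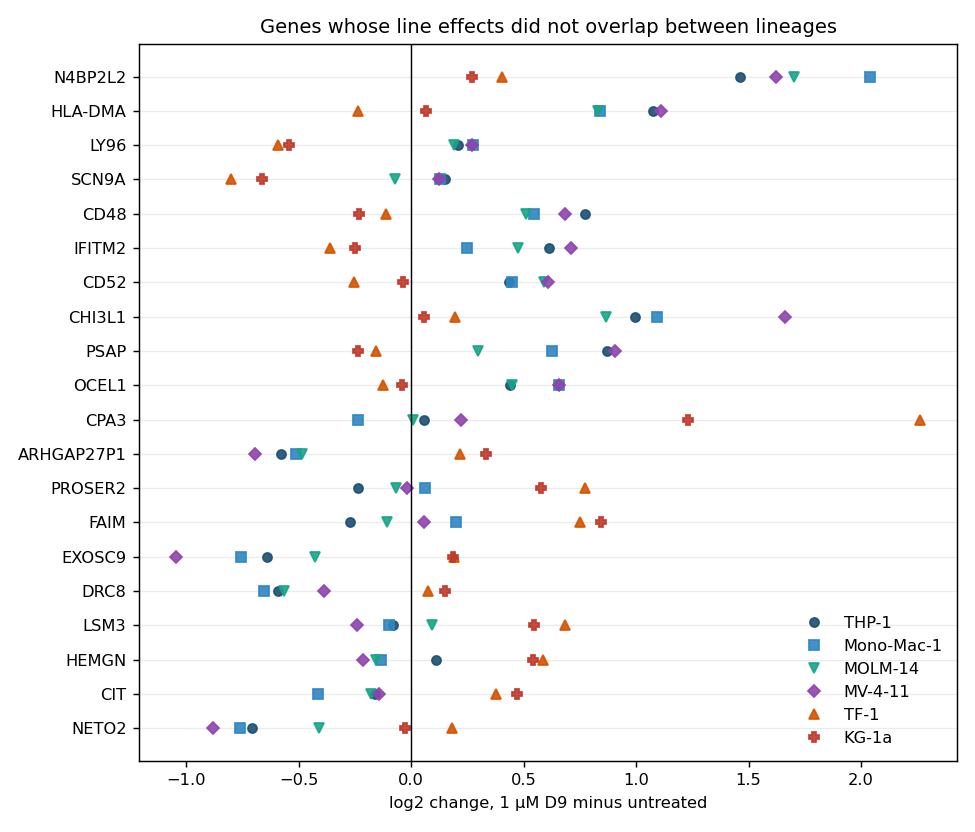
Log2 change by 1 µM D9 (x axis, 1 µM minus untreated) of the 20 named genes (rows) in each line (marker shape and colour). The genes were chosen for having no overlap between the 4 monocytic and 2 progenitor values, N4BP2L2 to OCEL1 with monocytic values higher and CPA3 to NETO2 with monocytic values lower.

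Genes with the largest change within the monocytic lines fell into those shared with the progenitor lines and those that were not. HSPA5, the main chaperone of the endoplasmic reticulum, read 1.33 in THP-1, 1.42 in Mono-Mac-1, 1.27 in MV-4-11 and 0.95 in MOLM-14, and 0.78 in TF-1 and 0.42 in KG-1a. It was higher in 6 of 6 lines and rose by 1.24 ± 0.10 in the monocytic lines (adjusted p = 0.00836), with a progenitor mean of 0.60 ± 0.14 (adjusted p = 0.613) and a difference of 0.65 ± 0.18. IMPDH2, which commits purine precursors to guanine nucleotides, read -1.15, -0.50, -1.23 and -1.27 in the monocytic lines and -0.76 and -0.61 in TF-1 and KG-1a. IMPDH2 was lower in all 6 lines, fell by 1.04 ± 0.13 in the monocytic lines (adjusted p = 0.0267) and showed a small difference (-0.36 ± 0.23). ANKMY1 was closer still, at -1.16 ± 0.09 and -0.93 ± 0.13, and SLC39A3, a zinc transporter gene, was at 1.26 and 1.19 on a probe whose brighter partner read -0.54 and -0.65. The small nucleolar RNA SNORD13 read 1.55, 3.47, 2.71 and 1.55 against 1.71 and 0.44, which overlap.

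ADAMTS1 and EGR1 had progenitor means of -0.14 ± 0.30 and 0.33 ± 0.32. ADAMTS1, a secreted metalloprotease, read 1.70 in THP-1, 1.51 in Mono-Mac-1, 0.23 in MV-4-11 and 0.98 in MOLM-14, and -0.03 and -0.25 in TF-1 and KG-1a, where its level was low (6.33 and 6.80 untreated). It rose by 1.11 ± 0.21 in the monocytic lines (adjusted p = 0.0649) with a difference of 1.25 ± 0.36. EGR1, an immediate early transcription factor induced by ERK signalling, read -0.23, -1.93, -1.10 and -0.92 against 0.61 and 0.05, with KG-1a at a low level (6.66 untreated). It fell by 1.05 ± 0.23 in the monocytic lines (adjusted p = 0.0837) with a difference of -1.37 ± 0.40. The set of 20 also held FADS1, a fatty acid desaturase, which fell by 1.06 ± 0.13 (progenitor mean -0.13), the kinetochore gene CENPW by 1.03 ± 0.18 (progenitor 0.13) and CBS, which draws homocysteine into cysteine synthesis, by 1.18 ± 0.26. CBS read -0.56 in TF-1, inside the monocytic range (-2.13 to -0.46), and its level in KG-1a was below the filter (5.96 untreated). H2AC18, RNVU1-7, SNORD3D and FOXD4L1 rose by 1.02 to 1.16 in the monocytic lines. FOXD4L1 was higher in all 6 lines, at 0.74 in TF-1 and 0.69 in KG-1a beside 0.79 to 1.77. H2AC18 read 0.82 in TF-1, above THP-1 (0.51) and MOLM-14 (0.46), and 0.10 in KG-1a. SNORD3D went from 10.04 to 10.87 in TF-1 and from 8.39 to 8.18 in KG-1a. RNVU1-7 went from 9.05 to 9.22 in TF-1 and from 8.72 to 8.63 in KG-1a. Of the 20, 4 were called under each of the 14 other choices of values, filters, doses and lines, namely N4BP2L2, HSPA5, ANKMY1 and IMPDH2. Outside those choices, 0 probes were called in the monocytic lines without pairing by line or by Student's t-test after Benjamini-Hochberg adjustment.

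In the progenitor lines no gene passed, and those named had the smallest unadjusted p, CPA3 first. They are not the largest values, since SNORD13 (1.07) and SLC39A3 (1.19) had larger progenitor means than NRGN or ITM2A. NRGN, a calmodulin-binding protein, read 0.69 in TF-1 and 1.15 in KG-1a against 0.08 to 0.55 in the monocytic lines. ITM2A, a membrane protein, read 0.82 and 0.49, while its level of 5.79 to 6.24 in the monocytic lines lay around the filter and its second probe read 0.06 and -0.06 in TF-1 and KG-1a. OSM, which codes for the cytokine oncostatin M, read -0.85 in TF-1 and -0.95 in KG-1a against -0.58 to 0.11, with THP-1 and Mono-Mac-1 near the filter (6.07 to 6.36). EXOSC6, another exosome subunit, had a mean of -0.86 in the progenitor lines and fell by 0.82 in the monocytic lines (difference 0.03 ± 0.19).

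Genes of the cell cycle were lower in the monocytic lines as groups, unevenly between lines. For 41 genes of S phase and DNA replication the median effect was -0.23 in THP-1, -0.72 in Mono-Mac-1, -1.34 in MV-4-11 and -0.08 in MOLM-14, and 0.03 in TF-1 and -0.09 in KG-1a. The median of MOLM-14 was thus no lower than that of KG-1a, and MV-4-11 and Mono-Mac-1 carried the group. The median difference was -0.57, with 38 of 41 genes below 0, against 0.01 and 6964 of 14337 over all genes. The monocytic mean was below 0 in 41 of 41, beside 6905 of all 14337 genes. Of the 41, 4 were called lower in the monocytic lines, beside 1.69% of all genes, and 0 were called higher. Line effects of 13 did not overlap in the lower direction, beside 6.9% of all genes. Without MV-4-11 the median difference was -0.33, and it was -0.20 for THP-1 against TF-1, whose arrays share the higher lowest signal, and -0.59 among the other 4 lines.

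DTL had the largest difference of the S phase list. It codes for the substrate receptor of a ubiquitin ligase that removes licensing factors during replication, and its effects were -0.16, -1.04, 0.02 and -1.21 in THP-1, Mono-Mac-1, MOLM-14 and MV-4-11 against 0.71 in TF-1 and 0.47 in KG-1a. The monocytic mean of -0.60 ± 0.20 did not pass (adjusted p = 0.198), and the difference was -1.19 ± 0.34. RRM1, the large subunit of ribonucleotide reductase, read -0.64, -0.93, -0.38 and -1.40 against 0.12 and 0.10, and fell by 0.84 ± 0.15 in the monocytic lines (adjusted p = 0.0567). The replication initiation factor MCM10 fell by 1.04 ± 0.23 and the helicase subunit MCM4 by 0.94 ± 0.21, with MV-4-11 lowest for each at -1.91 and -1.75. The fourth gene called lower was PRIM1, a primase subunit, which was also lower in the progenitor lines (-0.55 and -0.25).

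The promoter of DTL is shown because it is the S phase gene with the largest difference whose promoter holds an E2F word, the letters that the E2F factors of S phase entry are known to read. The 250 bases before its start lie at chr1:212035498-212035747 (plus strand, RefSeq GRCh38.p14), and the word TTTGGCGC, in capitals, starts at position -8 from the gene start.
DTL: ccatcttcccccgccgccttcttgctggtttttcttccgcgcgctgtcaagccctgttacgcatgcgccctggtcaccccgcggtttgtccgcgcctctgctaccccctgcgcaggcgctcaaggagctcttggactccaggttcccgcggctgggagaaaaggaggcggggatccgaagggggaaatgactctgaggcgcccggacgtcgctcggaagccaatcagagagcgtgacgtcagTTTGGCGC
The words searched on both strands were TTTCCCGC, TTTCGCGC, TTTGCCGC and TTTGGCGC. At least 1 of them was in 15 of 38 promoters of the S phase list (39.5%), in 3 of 33 of the mitosis list (9.09%) and in 2.79% of all 35114 promoters. Among lists outside the cell cycle, the words were in 3 of 23 interferon-stimulated promoters (13%), 0 of 14 of class II and 0 of 24 of the lysosome list. CCAAT was in 23 of 38 S phase promoters (60.5%) and in 29 of 33 mitosis promoters (87.9%), beside 32% of all. The lists were written from general knowledge, and these shares describe the letters of their promoters only. A link to the D9 effects was not tested.

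The 40 genes of mitosis and the spindle behaved alike. Their median was -0.19 in THP-1, -0.53 in Mono-Mac-1, -1.31 in MV-4-11 and -0.05 in MOLM-14, and 0.15 in TF-1 and -0.10 in KG-1a. MOLM-14 again lay beside the progenitor lines. The difference was below 0 in 40 of 40 genes with a median of -0.45, and without MV-4-11 that median was -0.15. The monocytic mean was below 0 in 39 of 40, and 4 were called lower, beside 1.69% of all genes. The spindle checkpoint gene BUB1B read -0.65, -1.01, -0.17 and -0.99 against 0.15 and 0.09 and fell by 0.70 ± 0.14 (adjusted p = 0.0674). Its partners BUB1 and MAD2L1 fell by 0.92 ± 0.21 and 0.79 ± 0.18, and the spindle-associated gene HMMR by 0.93 ± 0.20. Non-overlap in the lower direction was found for 8 of 40, beside 6.9% of all genes.

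**Figure D5:**
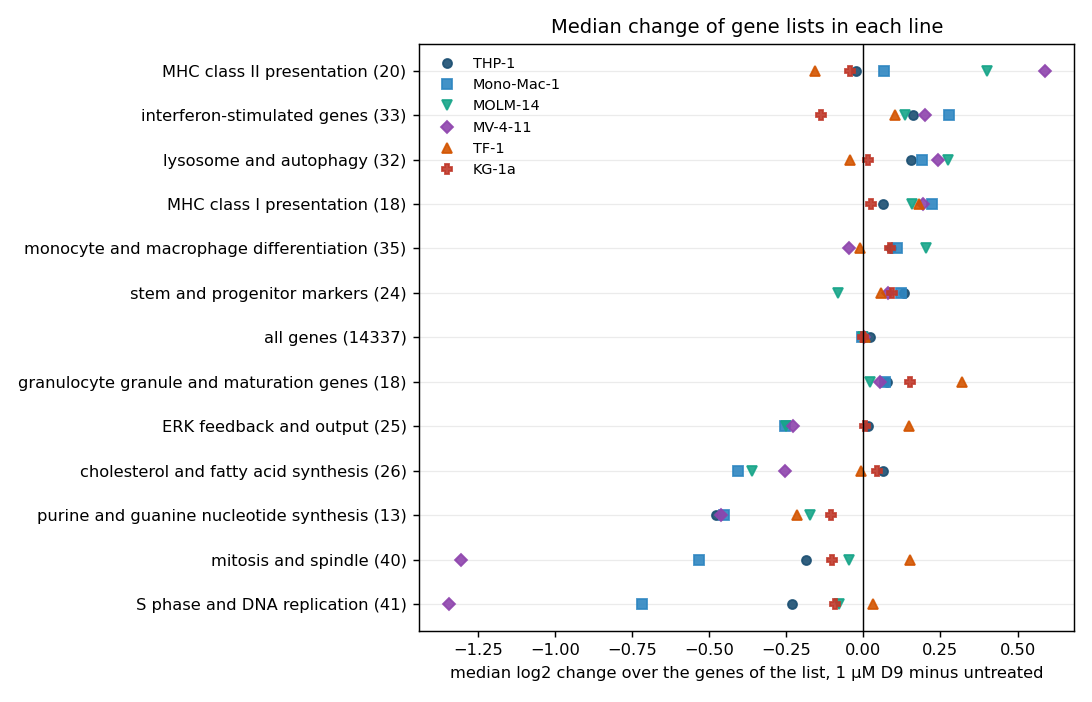
Median log2 change over the genes of each list (x axis, 1 µM D9 minus untreated; number of genes in brackets) in each line (marker shape and colour), with all genes for reference. S phase and mitosis medians spread from near 0 in TF-1, KG-1a and MOLM-14 to below -1.25 in MV-4-11, and lysosome medians of the 4 monocytic lines lie to the right of both progenitor lines.

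MHC class II genes were higher in the monocytic lines in part. Of 20 genes, 18 had a difference above 0 with a median of 0.32, 3 rose in the monocytic lines, beside 2.04% of all genes, and 4 did not overlap in the higher direction, beside 7.67% of all genes. The medians by line were 0.59 in MV-4-11, 0.40 in MOLM-14, 0.07 in Mono-Mac-1 and -0.02 in THP-1, and -0.16 in TF-1 and -0.04 in KG-1a. HLA-DMA and its partner chain HLA-DMB moved in all 4 monocytic lines, HLA-DMB with effects of 0.66, 0.91, 0.67 and 0.98 against 0.30 and 0.13 and a rise of 0.80 ± 0.09 (adjusted p = 0.0212). IFI30, a thiol reductase of antigen processing, rose by 0.35 ± 0.08. The antigen-presenting chains followed another pattern. HLA-DRA read 1.56 in MV-4-11, 0.76 in MOLM-14, 0.05 in Mono-Mac-1 and -0.46 in THP-1, and CD74, the invariant chain, 2.44, 0.50, 0.18 and -0.79, so they overlapped with TF-1 (-0.41 and -0.51) and KG-1a (-0.24 and 0.23). CIITA, the master regulator of class II genes, read -0.15 to 0.11 in the monocytic lines and -0.20 and -0.29 in TF-1 and KG-1a, on a probe at a mean level of 6.32, near the filter.

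Lysosomal genes were higher more evenly. The median of 32 lysosome and autophagy genes was 0.16 in THP-1, 0.19 in Mono-Mac-1, 0.24 in MV-4-11 and 0.28 in MOLM-14, above -0.04 in TF-1 and 0.01 in KG-1a. The difference lay above 0 for 27 of 32 genes (median 0.20), 5 rose in the monocytic lines, beside 2.04% of all genes, and 11 did not overlap in the higher direction, beside 7.67% of all genes. With median scaling the median difference was 0.01, where that of all genes was -0.11. NEU1, the lysosomal sialidase, read 0.34, 0.42, 0.32 and 0.42 against -0.12 in TF-1 and -0.35 in KG-1a and rose by 0.37 ± 0.08 (adjusted p = 0.0748). The cathepsin genes CTSD, CTSB and CTSA rose by 0.73 ± 0.15, 0.76 ± 0.16 and 0.67 ± 0.11, and PSAP was the fifth. CTSB was also higher in TF-1 (0.57), and CTSA in both progenitor lines (0.21 and 0.39).

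Interferon-stimulated genes had a median difference of 0.25, with 25 of 33 above 0, 5 that rose in the monocytic lines (2.04% of all genes did) and 8 without overlap in the higher direction (7.67% of all genes). The medians of the 4 monocytic lines lay between 0.14 and 0.28, those of TF-1 and KG-1a at 0.10 and -0.14. TF-1 was therefore close to the monocytic range, and without KG-1a the median difference was 0.07. It was -0.02 for THP-1 against TF-1 and 0.47 among the other 4 lines. ISG15, a ubiquitin-like protein, read 0.88, 0.64, 0.47 and 0.43 against 0.31 and -0.22 and rose by 0.60 ± 0.11. GBP2, a guanylate-binding protein of host defence, rose by 0.80 ± 0.18 and IRF7, a driver of type I interferon, by 0.64 ± 0.10. IFITM1 had the largest difference (1.2 ± 0.31), with 1.25 in MV-4-11, 0.07 to 0.27 in the other monocytic lines, -0.63 in TF-1 and -0.88 in KG-1a. EIF2AK2, the kinase that double-stranded RNA activates, went the other way, at -0.35 to -0.10 against 0.28 and 0.29. MHC class I genes had a median difference of 0.14, with 13 of 18 above 0. Of these 18, 3 were called higher in the monocytic lines, beside 2.04% of all genes. The median difference turned to -0.01 without KG-1a and to -0.12 with median scaling. It was 0.09 without Mono-Mac-1 or without MV-4-11. Of the class I genes 0 of 18 lay without overlap in the higher direction, beside 7.67% of all genes.

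Metabolic and signalling lists were lower in the monocytic lines by small medians. For comparison, 12 housekeeping genes had a median difference of -0.09, with 9 below 0. Of these 12, 3 did not overlap in the lower direction, beside 6.9% of all genes, and 0 in the higher direction, beside 7.67%. For 13 genes of purine and guanine nucleotide synthesis the median difference was -0.20 and 4 fell in the monocytic lines (IMPDH2, GMPS, ADSL and PAICS), beside 1.69% of all genes. The median was -0.08 without KG-1a and -0.12 without MOLM-14. GMPS, the last enzyme of GMP synthesis, was almost as low in the progenitor lines (-0.52 against -0.66). The list median was -0.45 to -0.48 in 3 monocytic lines, -0.17 in MOLM-14, -0.22 in TF-1 and -0.11 in KG-1a. For 26 cholesterol and fatty acid synthesis genes the difference was below 0 in 22, with a median of -0.19. Medians were -0.41 in Mono-Mac-1, -0.25 in MV-4-11 and -0.36 in MOLM-14 but 0.06 in THP-1, beside -0.01 in TF-1 and 0.05 in KG-1a. In the monocytic lines 3 genes were called lower (FADS1, SQLE and ACACA), beside 1.69% of all genes. The median difference was -0.30 without THP-1. SQLE, squalene epoxidase, read -0.85, -1.05, -0.44 and -0.33 against 0.08 and 0.06. Of 25 ERK feedback and output genes 21 had a difference below 0 (median -0.17), but the median was 0.02 in THP-1 and 0.01 in KG-1a, so the lines overlapped. It was -0.23 to -0.25 in the other monocytic lines and 0.15 in TF-1, and the median difference was -0.11 without TF-1 and -0.27 without THP-1. The feedback inhibitor SPRY2 read -0.45, -0.59, -0.44 and -0.75 against 0.16 in TF-1 and -0.15 in KG-1a and fell by 0.56 ± 0.09 (adjusted p = 0.0442).

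Most lineage genes moved little as groups, while granulocyte genes were higher in TF-1. For 35 monocyte and macrophage differentiation genes the median difference was 0.12. In the monocytic lines 1 was called higher (CSF1R, by 0.44 ± 0.09), beside 2.04% of all genes. Another 1 was called lower (IRF8, a transcription factor of monocyte and dendritic cells, by 0.45 ± 0.10), beside 1.69% of all genes. CD14 read 1.28 in THP-1, 0.45 in MOLM-14, 0.17 in Mono-Mac-1 and -0.25 in MV-4-11, against -0.33 in TF-1 and -0.07 in KG-1a, and LYZ read 1.61 in Mono-Mac-1 and 0.72 in MOLM-14 but -0.29 in THP-1 and -0.30 in MV-4-11. These effects overlap with the progenitor lines. ITGAM did not overlap, at 0.22 to 0.52 against -0.64 in TF-1 and 0.21 in KG-1a, with KG-1a and MV-4-11 near the filter (6.25 and 6.26 untreated). The 24 stem and progenitor markers had a median difference of -0.03 with no call in either direction in the monocytic lines, and CD34 read -0.68 in TF-1 and 0.28 in KG-1a, the lines that express it. KIT, a stem cell factor receptor, was at 1.53 in MV-4-11 and at 0.20 and 0.19 in TF-1 and KG-1a. The 18 granulocyte genes had a median difference of -0.11, with 14 below 0 and 4 above. Their median was 0.32 in TF-1, 0.15 in KG-1a and 0.02 to 0.08 in the monocytic lines. Of the 18, 4 did not overlap in the lower direction and 2 in the higher, beside 6.9% and 7.67% of all genes. The peroxidase gene MPO rose by 0.92 ± 0.14 in the monocytic lines (adjusted p = 0.0374). CEBPA, a granulocytic factor, was at 0.43 in TF-1 and 1.01 in KG-1a against 0.08 to 0.43, SPI1 at -0.28 to 0.29 in the 6 lines and GATA1 at -0.26 to 0.11. MEIS1 had a difference of -0.02, and HOXA9 was not analysed here.

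Genes tied to the compound and to cell death were also compared. EZH2, the histone methyltransferase of PRC2, had a monocytic mean of -0.34 and a progenitor mean of -0.29 on its brightest probe, a difference of -0.04 ± 0.20, and its other probes gave -0.16 and -0.17. AHCY, the target of the parent compound, differed by -0.15 ± 0.19. BCL2L11, which codes for BIM, had an untreated level of 6.10 to 6.46 in THP-1, MOLM-14, MV-4-11 and KG-1a, near the filter. It gave a difference of -0.002 ± 0.157 that rests largely on dim signal. Its other probes, also dim at a mean level of 6.44, gave -0.28 and -0.21. BIRC5, which codes for survivin, differed by -0.09 ± 0.51 with -1.24 in MV-4-11 alone. MYC read -0.32 in THP-1, 0.24 to 0.58 in the other monocytic lines and 0.44 and 0.53 in the progenitor lines. Among 13 pro-apoptotic BCL2 family genes BMF, a BH3-only protein, read 0.45, 0.93, 0.72 and 1.31 against 0.03 in TF-1, where it was dim, and 0.08 in KG-1a, without overlap. It rose by 0.85 ± 0.13 in the monocytic lines (adjusted p = 0.0393) with a difference of 0.80 ± 0.22. The other lists had median differences between -0.22 for the MYC, MAX and MXD network and 0.21 for cytokine receptors.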

How the data were processed

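The deposited raw table holds linear intensity values per probe of all 17 arrays, which the authors summarised in GenomeStudio (version not given in the sources used here) without normalization between arrays. A second deposited table holds log2 values made by the authors in GeneSpring, and these could be rebuilt within 0.00061 from the raw signals as log2 minus each array's upper quartile and each probe's median. Neither table carries detection p-values, and no chip or date is named, so batches could not be tested. Raw signals of all arrays were corrected with limma's normexp method (limma 3.58.1, R 4.3.3, offset 50), quantile-normalized and log2-transformed, and probes with a mean level above the 40th percentile (6.16) were kept, 28394 of 47323. Of all probes, 30113 had 1 gene symbol, 8 several and 17202 none.

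The effect of a line was log2 at 1 µM minus log2 untreated, so the pairing comes from the line named in the labels. The 6 effects were fitted in limma (lmFit, eBayes) by lineage with 4 residual degrees of freedom, and probes were called at a Benjamini-Hochberg adjusted p under 0.10 over all tested probes. Counts of 2-fold changes per line were compared by an exact permutation test. Values after ± are standard errors of that fit. The number of arrays limits the precision, and the scripts were tested on simulated data.

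The members and gene lists were chosen with earlier results of these data known, and no list was tested as a set. Genes were named by rule: up to 10 per direction with the largest change among called probes of 1 sign over the lines of the lineage, or, where fewer than 5 passed, with the smallest unadjusted p (for the difference, without overlap), 4 members of each list with the largest difference, and a fixed set of 18. Further called list members, EIF2AK2, CD3D, CD7 and second probes of named genes were named after their values were seen. A list uses the brightest tested probe per gene. Promoters are RefSeq's, matched by symbol. The analysis was repeated with an offset of 16, with median scaling, without background correction and on the log2 values of the authors. Other repeats used no filter or one at the 60th percentile, a threshold of 0.05, or the 5 µM dose alone or averaged with 1 µM. The rest were without pairing, with class or lowest signal as a covariate, with an intensity trend, by Student's t-test and without each line in turn.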

Additional observations from a re-analysis of the deposited data

Results flagged for a closer look

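In 16 of 249 sets of 4 monocytic values (genes and list medians) the line at an end stood apart from the nearest other by more of the range than Dixon's critical value for 4 samples, which chance passes in about 1 in 20 sets. THP-1 and MOLM-14 were the line apart in 5 sets each, MV-4-11 and Mono-Mac-1 in 3 each. The differences between the lineages themselves had no call.

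In THP-1, MPO was at 1.513 (the other monocytic lines at 0.66 to 0.79), the nucleolar gene NOP56 at -0.3559 (others at -0.84 to -0.77) and NFE2L2, the regulator of the oxidative stress response, at -0.9482 (others at 0.22 to 0.31). The median of the MYC, MAX and MXD network was -0.318 there (others at -0.005 to 0.04), and that of ERK feedback and output genes 0.0151 (others at -0.25 to -0.23).

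In MOLM-14, CSF1R was at 0.6437 (others at 0.36 to 0.38), the fatty acid binding protein gene FABP5 at 0.595 (others at -0.67 to -0.50), HPRT1, which salvages purines, at 0.06428 (others at -0.71 to -0.58) and SCN9A at -0.07331 (others at 0.13 to 0.15). The purine synthesis median was -0.1716 (others at -0.48 to -0.45).

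In MV-4-11, IFITM1 was at 1.252 (others at 0.07 to 0.27), the receptor gene FLT3 at 0.007403 (others at -0.63 to -0.53) and the endoplasmic reticulum gene CRELD2 at -0.6573 (others at 0.19 to 0.36). In Mono-Mac-1, IMPDH2 was at -0.4976 (others at -1.27 to -1.15), CIT at -0.4142 (others at -0.18 to -0.14) and WDR20 at -0.7695 (others at -0.47 to -0.41).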

How the results depend on the processing

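The monocytic minus progenitor difference had 0 called probes in limma under every other choice of values, filter, dose, covariate and threshold and without any 1 line, with a smallest adjusted p of 0.215 (without KG-1a). Student's t-test, the study's general test, gave 1380 probes at an unadjusted p under 0.05 for the difference. It gave 2447 for the monocytic lines and 1784 for the progenitor lines, and 0 for each after Benjamini-Hochberg adjustment. The study compared its own classes on the arrays by another method, Significance Analysis of Microarrays. The 821 calls of the monocytic lines became 1507 with the mean of both doses, 1297 with 5 µM alone (5 lines), 152 at an adjusted p under 0.05, 297 with class as a covariate and 0 without pairing by line, where differences between lines enter the spread. Leaving out 1 line gave 6 (Mono-Mac-1) to 1347 (THP-1) calls in the monocytic lines, 0 to 4 in the progenitor lines (4 without KG-1a) and 0 for the difference. Without TF-1 or KG-1a the remaining progenitor line is assumed to vary like the monocytic lines. With 2 monocytic lines at a time, chosen after seeing the data, there were 0 to 2043 calls in the monocytic lines, 0 to 196 in the progenitor lines and 0 to 1 for the difference. The intensity trend gave 1 call in the progenitor lines. The cause of these shifts was not tested. The sensitive minus resistant split had 0 calls under each of 7 alternatives, and the ratio of 2-fold counts ran from 2.22 to 6.97. Of 207 named probes, 176 kept the sign of their difference under 14 alternatives. Among these are the 20 chosen without overlap, whose sign cannot change when a line is left out. With median scaling the median difference of all genes was -0.11, so small list medians shift by that size. With 1 array per line and dose, the spread within a line is unknown, and low signals such as CPA3 in monocytic lines limit what change can be seen.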
